A study of Homo sapiens with 6 samples.

Results

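The 9 genes described here encode enzymes that build nucleotides: RRM1, RRM2, TYMS and TK1, which supply deoxynucleotides for DNA, CAD, DHODH and UMPS, which make the pyrimidine ring, and PPAT and GART, which act early in purine synthesis. They were chosen by symbol from a table of 12982 genes, and all 9 were in it. RNA was sequenced from SW480 cells, an established human line of colorectal adenocarcinoma labelled as wild type, treated for 24 h with either DMSO (the vehicle) or MPM-1, with 3 libraries each. MPM-1 is a small molecule made to accumulate in mitochondria, which the labels call WT4, and its dose in this experiment is not given in the sources used here. Nothing in those sources says that the libraries came from separate cultures, so the p-values measure the spread between libraries, which may be technical.

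A cell that copies its DNA needs all 4 deoxynucleotides at once. Ribonucleotide reductase, a complex of the large subunit RRM1 with the small subunit RRM2, turns ribonucleotides into deoxynucleotides, and thymidylate synthase (TYMS) and thymidine kinase (TK1) provide thymidylate by de novo and by salvage routes. Pyrimidine and purine rings are built by separate routes. DHODH sits in the inner mitochondrial membrane and passes electrons to the respiratory chain, whereas CAD and UMPS, the other enzymes up to UMP, are cytosolic. RRM2, TYMS and TK1 are known as genes whose transcripts are highest around S phase.

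Of the 9 genes, 7 fell after MPM-1 and none rose. All 4 deoxynucleotide genes and all 3 pyrimidine genes fell, to between 37.5% (DHODH) and 58.8% (TYMS) of the DMSO level. The 2 purine genes, PPAT and GART, did not pass the test. "Fell" and "rose" mean an adjusted p under 0.05 in edgeR's quasi-likelihood test, adjusted over all 12982 genes. Among all genes tested, 28.8% fell and 27.7% rose by the same rule, so a fall was common in these cells. In the same 7 genes, every MPM-1 library lay below every DMSO library, an order that 33.3% of all genes showed. By a stricter rule, an adjusted p under 0.01 and a change of at least 2-fold, 3 of the 9 (RRM2, CAD and DHODH) fell, against 8.75% of all genes. TK1 lay just outside the fold limit with a 1.99-fold fall, and CAD just inside it at 2.10-fold. The median log2 fold change was -0.89 over the 9 genes and -0.03 over all genes. A lower transcript level in such bulk RNA cannot tell fewer cells expressing a gene from less RNA per cell.

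The libraries held 32095456 to 40269820 counts under DMSO and 31733667 to 35403841 under MPM-1, and the 9 genes received between 111 and 6613 counts per library. Replicates differed by more than sampling noise. All 8 epithelial markers examined were in the table (3 fell and 4 rose), and their summed level was 8351 to 9739 CPM under DMSO and 12224 to 13758 under MPM-1. Most of that sum came from the keratins among them, which rose, as did CDH1, whereas CDX1, CDX2 and VIL1 fell. EPCAM had a mean of 676 CPM in both treatments, although the intestinal factor CDX2 fell from 82.5 to 17.9 CPM. CPM are counts scaled to a common library total, after each total was multiplied by its TMM factor. The deposited FPKM values are scaled for transcript length and library size. In these, EPCAM was at 382 to 424 under DMSO and 347 to 368 under MPM-1. Its equal level thus held in CPM with TMM scaling and not in FPKM. Of 10 markers of other cell types, 3 were in the table (CD68, ACTA2 and COL1A1, of which CD68 rose and COL1A1 fell). Their summed level, mostly CD68, was 74.0 to 102 CPM under DMSO and 148 to 166 under MPM-1. Those not in the table included PTPRC, CD3E, PECAM1, VWF, COL3A1 and ALB. The part of these markers in the results was not tested. TMM scaling, used throughout, placed the median gene near 0, and scaling by library size alone moved the median of all genes to -0.18 and the shares of lower and higher genes to 37.5% and 19.9%. The 7 genes fell under both scalings.

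**Figure D1:**
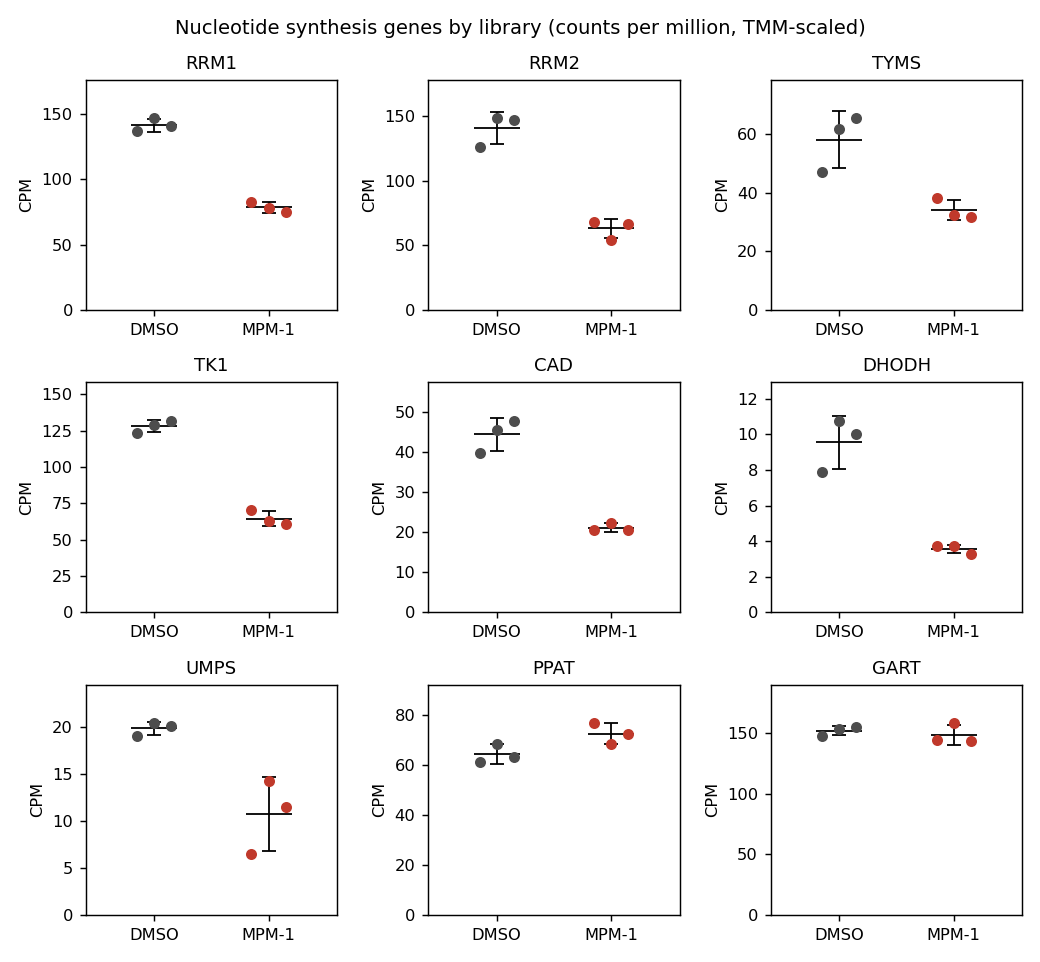
Level of each gene in each library, in CPM after TMM scaling, on axes that start at 0. Points are libraries, black bars are means and whiskers are 1 SD (n = 3 per treatment). In 7 panels all MPM-1 points lie below all DMSO points, and in the panels of PPAT and GART the treatments overlap.

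RRM1 (ENSG00000167325, chr11:4094707-4138876, plus strand) encodes the catalytic subunit of ribonucleotide reductase. It stood at 137, 147 and 140 CPM in DMSO libraries 1 to 3 and at 82.8, 78.2 and 74.6 CPM in MPM-1 libraries 1 to 3. The lowest DMSO library was well above the highest MPM-1 library. The means were 141 ± 4.97 and 78.5 ± 4.10 CPM (SD, n = 3), and the log2 fold change was -0.85 (SE 0.075, edgeR adjusted p = 1.69e-05).

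RRM2 (ENSG00000171848, chr2:10120698-10131419, plus strand) encodes the subunit that holds the tyrosyl radical, and its supply is held to limit the enzyme in cycling cells. It was at 126, 148 and 147 CPM under DMSO and at 68.0, 54.4 and 66.8 CPM under MPM-1. Its MPM-1 libraries were all below its DMSO libraries, with library 2 the lowest. The mean went from 141 ± 12.5 to 63.1 ± 7.54 CPM (SD, n = 3), a log2 fold change of -1.16 with a 95% interval of -1.40 to -0.92 (edgeR adjusted p = 2.19e-05). RRM2 shares 8681 bases on the same strand with the gene model AC007240.1, which is not in the table, so its counts are uncertain to the extent that reads of both models were assigned to it.

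Short stretches before the RefSeq transcription starts (GRCh38.p14) are shown for both subunits because each holds the CCAAT box, the letters bound by the factor NF-Y, and RRM2 holds it in 3 near-identical copies. Capitals mark CCAAT, and both run on the plus strand, at chr11:4094642-4094676 for RRM1 and chr2:10122601-10122692 for RRM2.
RRM1: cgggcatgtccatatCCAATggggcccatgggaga
RRM2: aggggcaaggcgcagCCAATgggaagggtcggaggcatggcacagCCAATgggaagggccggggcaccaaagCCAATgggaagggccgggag
The RRM1 copy begins 28 bases before the start, and the 3 RRM2 copies begin 123, 93 and 66 bases before it. In GENCODE 29 the RRM2 stretch also lies in the first exon of longer transcripts (RRM2-202 and RRM2-212), 74 of its bases being coding there.

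In the 250 bases before a start, CCAAT in either direction was found in 6 of the 9 genes, 5 of the 7 that fell (RRM1, RRM2, TK1, CAD and DHODH) and also GART. Counted by window, 9 of the 13 annotated starts of these genes had it, beside 32% of 35116 RefSeq promoters. The 13 windows are not independent. Those of RRM2 and of TK1 overlap in part. The GART windows chr21:33542893-33543142 and chr21:33542890-33543139 hold the same copies, so the share by window counts them more than once. The letters of an E2F site (TTTCCCGC, TTTCGCGC, TTTGCCGC or TTTGGCGC, either strand) were found in TYMS and GART only, and in 2.79% of all promoters. The E-box CACGTG was found in DHODH and PPAT, and in 6.34% of all promoters. A cell cycle homology element (TTTGAA or TTCGAA, either strand) was found in RRM1 and UMPS, and in 14.3%. The genes that fell and those that did not pass therefore shared the CCAAT, E2F and E-box letters, and such a match is a description of the letters only.

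TYMS (ENSG00000176890, chr18:657604-673578, plus strand) methylates dUMP to dTMP and is the target of fluorouracil. Its E2F letters lie at chr18:657603-657632, shown with the match in capitals because TYMS was the only 1 of the 7 genes with it. GENCODE 29 places 29 of these 30 bases in the first exon of TYMS-203.
TYMS: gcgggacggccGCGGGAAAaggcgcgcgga
The gene was at 47.0, 61.8 and 65.4 CPM under DMSO and 38.2, 32.5 and 31.8 CPM under MPM-1. DMSO library 1 was the lowest of its group yet above every MPM-1 library. The log2 fold change was -0.77 (SE 0.131, edgeR adjusted p = 0.00086), the smallest fall of the 7. TYMS overlaps ENOSF1 by 3255 bases on the other strand, and whether the counting used strand is not given in the sources used here. ENOSF1 itself was at 26.7 ± 4.26 CPM under DMSO and 23.4 ± 1.95 CPM under MPM-1 (SD, n = 3) and did not pass the test (log2 fold change -0.19, edgeR adjusted p = 0.229).

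TK1 (ENSG00000167900, chr17:78174075-78187233, minus strand) phosphorylates thymidine in the cytosol. It was at 124, 129 and 132 CPM under DMSO and at 70.2, 62.7 and 60.6 CPM under MPM-1. The 2 groups were narrow and far apart. Its mean went from 128 ± 4.25 to 64.5 ± 5.04 CPM (SD, n = 3), with a log2 fold change of -0.99 and a 95% interval of -1.17 to -0.81 (edgeR adjusted p = 1.09e-05).

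Among the 12 other genes of deoxynucleotide supply in the list, 5 fell (41.7%), 4 rose (33.3%) and 3 did not pass. The shares among all genes were 28.8% and 27.7%. The median log2 fold change of the 12 was 0.04. DTYMK, which phosphorylates dTMP to dTDP and so stands next after TYMS and TK1, had a larger estimated fall than each of the 4 enzymes, from 89.2 ± 5.69 to 34.3 ± 2.24 CPM (SD, n = 3; log2 fold change -1.38, edgeR adjusted p = 2.42e-06). DUT, a source of the dUMP that TYMS uses but not the only one, had a log2 fold change of -0.43. Its treatments overlapped, with DMSO library 1 at 38.7 CPM and MPM-1 library 2 at 38.8 CPM. The hydrolase DCTPP1 and the kinase DCK also fell, by 0.71 and 0.54 on the log2 scale. The reductants of ribonucleotide reductase moved the other way. Thioredoxin (TXN) rose from 399 ± 20.3 to 711 ± 67.2 CPM (SD, n = 3), a log2 fold change of 0.83. Glutaredoxin (GLRX) rose by 0.73 and thioredoxin reductase (TXNRD1) by 0.38 on the log2 scale, as did the deaminase DCTD by 0.35.

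**Figure D2:**
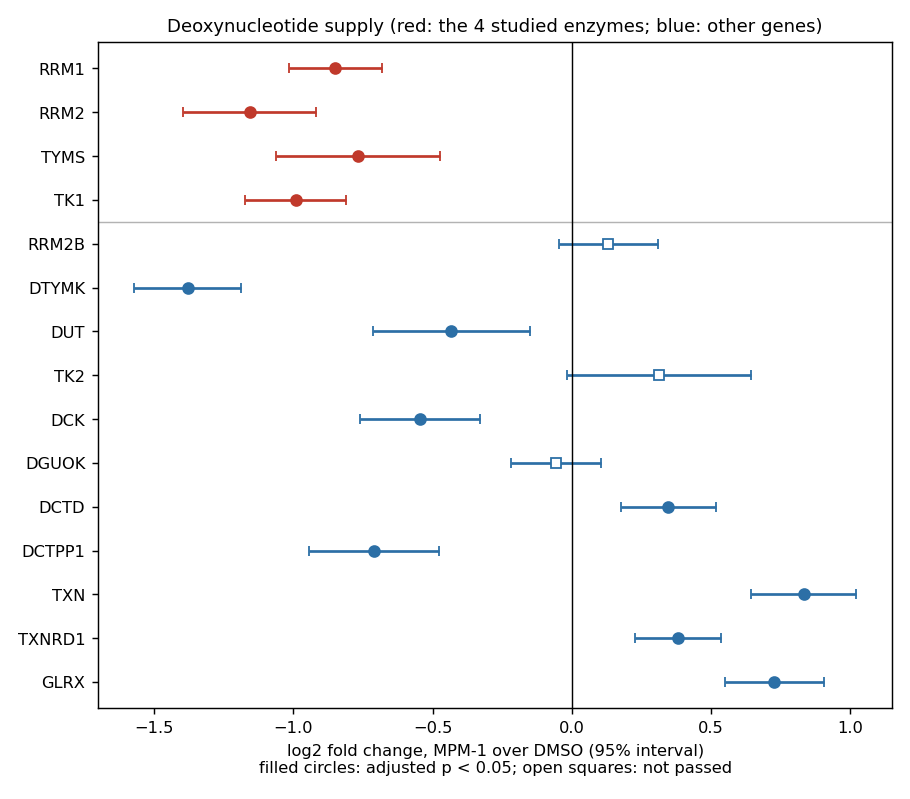
Log2 fold change (MPM-1 over DMSO, from edgeR) of selected genes of deoxynucleotide supply with 95% intervals. The 4 studied enzymes (red, top) lie between -1.16 and -0.77, DTYMK lies at -1.38, and TXN, GLRX, TXNRD1 and DCTD lie above 0.

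RRM2B, the other small subunit of ribonucleotide reductase, is a p53 target that serves DNA repair and mitochondrial DNA outside S phase. It was at 69.1, 65.3 and 63.4 CPM under DMSO and at 76.7, 67.5 and 72.5 CPM under MPM-1. The groups overlapped and it did not pass the test (log2 fold change 0.13, edgeR adjusted p = 0.181), and its sign turned when scaled by library size alone or taken from FPKM. FPKM is the deposited level per transcript length, which allows genes to be compared. The FPKM of RRM2 was 2.59, 3.41 and 3.46 times that of RRM2B in the DMSO libraries and 1.32, 1.21 and 1.38 times in the MPM-1 libraries. Under DMSO the S phase subunit thus had a geometric mean of 3.13 times the RRM2B level, and under MPM-1 1.30 times, with no overlap between treatments. In counts the log2 ratio fell by 1.29 (exact permutation test, two-sided, p = 0.1, adjusted over 4 pairs 0.1). With 3 libraries against 3, 0.1 is the smallest p this test can give.

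RRM2 and RRM1 stood closer together. The count of RRM2 was 0.921, 1.01 and 1.05 times that of RRM1 under DMSO and 0.822, 0.696 and 0.895 times under MPM-1, without overlap, a change of -0.31 in the log2 ratio (exact permutation p = 0.1, adjusted 0.1). In FPKM the treatments overlapped for this pair (change -0.29, exact permutation p = 0.2, adjusted 0.2). The count of TK1 relative to TYMS was 2.63, 2.09 and 2.02 under DMSO and 1.84, 1.93 and 1.91 under MPM-1 (change -0.24, exact permutation p = 0.1, adjusted 0.1). DMSO library 1 stood apart in that pair, and the change was -0.12 without it.

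**Figure D3:**
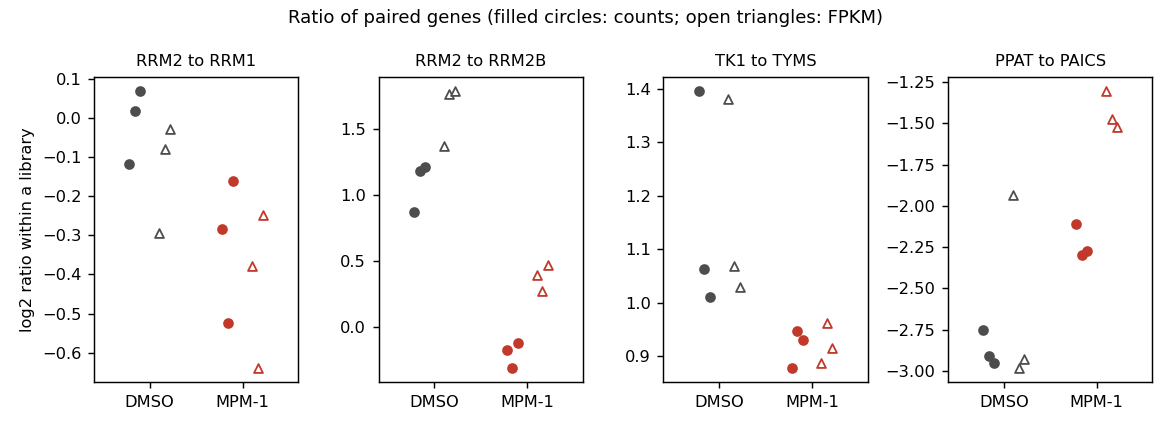
Log2 ratio of 2 genes within each library for 4 pairs, from counts (filled circles) and from FPKM (open triangles), DMSO in grey and MPM-1 in red, with a separate axis per pair. The ratio of RRM2 to RRM2B lies lower and that of PPAT to PAICS higher in every MPM-1 library, while the FPKM ratios of RRM2 to RRM1 overlap.

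CAD (ENSG00000084774, chr2:27217390-27243943, plus strand) carries the first enzyme activities of pyrimidine synthesis in a single protein. It was at 39.8, 45.6 and 47.8 CPM under DMSO and 20.7, 22.3 and 20.5 CPM under MPM-1. Each MPM-1 library was below each DMSO library by a wide margin. The mean went from 44.4 ± 4.15 to 21.2 ± 1.02 CPM (SD, n = 3), a log2 fold change of -1.07 (SE 0.098, edgeR adjusted p = 2.19e-05).

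DHODH (ENSG00000102967, chr16:72008588-72027664, plus strand) oxidises dihydroorotate to orotate and is the step of the route tied to mitochondrial respiration. It had 259, 465 and 398 counts under DMSO and 113, 114 and 111 under MPM-1, the lowest counts of the 9 genes. In CPM these were 7.85, 10.8 and 9.99 against 3.71, 3.71 and 3.31. The MPM-1 libraries lay close together and below all DMSO libraries. DHODH had the largest estimated fall of the 9, 2.67-fold, with a log2 fold change of -1.42 and a wide 95% interval of -1.84 to -0.99 (edgeR adjusted p = 0.000196).

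UMPS (ENSG00000114491, chr3:124730366-124749273, plus strand) turns orotate into UMP, the end of the route. It was at 19.0, 20.4 and 20.1 CPM under DMSO and at 6.43, 14.3 and 11.5 CPM under MPM-1. The DMSO libraries were nearly level, whereas MPM-1 library 1 lay well under the other two. The log2 fold change was -0.89 with the widest interval of the 9, -1.43 to -0.35 (edgeR adjusted p = 0.0108), and -0.61 without that library (edgeR adjusted p = 0.00497). The ratio of count to FPKM, which is fixed for a gene of fixed length and library of fixed size, varied 1.57-fold between libraries for UMPS and 1.26-fold for DHODH after library size was taken out, and at most 1.06-fold for the other 7 genes.

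Of the 7 other genes on the pyrimidine list, NME4, CTPS1 and NME1 fell (42.9%), CMPK1 rose (14.3%) and 3 did not pass. The shares among all genes were 28.8% and 27.7%. CTPS1, which aminates UTP to CTP, went from 19.0 ± 3.90 to 12.9 ± 2.96 CPM (SD, n = 3; log2 fold change -0.56, edgeR adjusted p = 0.0371). Its treatments overlapped, with DMSO library 1 at 14.5 CPM and MPM-1 library 2 at 16.3 CPM. On the whole pyrimidine list, studied enzymes included, 6 genes fell, and 5 to 7 fell over the alternative settings. The nucleoside diphosphate kinases NME4 and NME1 fell by 0.78 and 0.51 on the log2 scale. CMPK1, which phosphorylates UMP and CMP, had a log2 fold change of 0.31 and was not called higher with library size alone or with FPKM.

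PPAT (ENSG00000128059, chr4:56393362-56435615, minus strand) catalyses the committed step of purine synthesis. It was at 60.9, 68.5 and 63.3 CPM under DMSO and at 76.6, 68.3 and 72.3 CPM under MPM-1. The groups overlapped, since DMSO library 2 exceeded MPM-1 library 2 by a little. The log2 fold change was 0.17 with a 95% interval of -0.01 to 0.35 (edgeR adjusted p = 0.0951). Without MPM-1 library 2 it passed (log2 fold change 0.24, edgeR adjusted p = 0.041), whereas with library size alone the log2 fold change was 0.02 (edgeR adjusted p = 0.849).

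GART (ENSG00000159131, chr21:33503931-33543491, minus strand) carries 3 activities of the purine route in a single protein. It was at 148, 153 and 155 CPM under DMSO and at 144, 158 and 144 CPM under MPM-1. MPM-1 library 2 was the highest of all 6 and the other MPM-1 libraries the lowest. The means were 152 ± 3.76 and 149 ± 8.34 CPM (SD, n = 3), with a log2 fold change of -0.03 and a 95% interval of -0.19 to 0.13 (edgeR adjusted p = 0.750). With library size alone it was -0.18 and still did not pass (edgeR adjusted p = 0.0738). GART overlaps SON by 874 bases on the other strand, and SON did not pass either (log2 fold change 0.09, edgeR adjusted p = 0.378).

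PPAT and its neighbour PAICS, a later enzyme of the same route, are transcribed away from each other, with 125 bases between their GENCODE 29 ends, and the stretch between them (chr4:56435616-56435740, GRCh38.p14, minus strand, PPAT's direction) is shown because PAICS fell whereas PPAT did not pass. Capitals mark the GC box bound by Sp1 (GGGCGG or CCGCCC), found 3 times in these 125 bases. At least 1 copy was found in 42.6% of all promoters, over 250 bases each. RefSeq gives PAICS further starts, whose windows lie at chr4:56410257-56410506 and chr4:56436010-56436259, so its transcripts need not all begin at this stretch.
PPAT to PAICS: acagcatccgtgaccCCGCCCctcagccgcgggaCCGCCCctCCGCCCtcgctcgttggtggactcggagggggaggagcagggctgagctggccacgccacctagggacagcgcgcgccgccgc
PAICS was at 410, 514 and 490 CPM under DMSO and at 331, 335 and 349 CPM under MPM-1. All its MPM-1 libraries were lower (log2 fold change -0.48, edgeR adjusted p = 0.0016). The count of PPAT relative to PAICS rose from 0.149, 0.133 and 0.129 to 0.232, 0.204 and 0.207, without overlap, a change of 0.64 in the log2 ratio (exact permutation p = 0.1, adjusted 0.1). In FPKM the change was 1.18, and DMSO library 1 stood apart there, with PAICS at 63.1 FPKM beside 152 and 135 in the other DMSO libraries.

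Of the 16 other purine genes in the table, 7 fell (43.8%), 4 rose (25.0%) and 5 did not pass. The shares among all genes were 28.8% and 27.7%. In the steps to IMP, PRPS1 and PRPS2, which make the ribose donor, each fell by 0.44 on the log2 scale, and PFAS fell from 14.1 ± 2.91 to 4.84 ± 1.18 CPM (SD, n = 3; log2 fold change -1.54, edgeR adjusted p = 0.00033). ADSL and ATIC, the last enzymes before IMP, did not pass (log2 fold changes 0.26 and -0.07). After IMP, the guanylate branch enzymes IMPDH2 and IMPDH1 had log2 fold changes of -0.82 and -0.74, and ADSS of the adenylate branch of 0.65. GMPS stood at 100 ± 6.10 and 101 ± 6.50 CPM (SD, n = 3). The adenylate kinase AK6 rose by 0.70 on the log2 scale. The median of the whole purine list was -0.04, beside -0.53 for the pyrimidine list and -0.49 for deoxynucleotide supply, with the studied enzymes of each route included. Without those enzymes, the medians were -0.06, -0.21 and 0.04 in the same order.

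**Figure D4:**
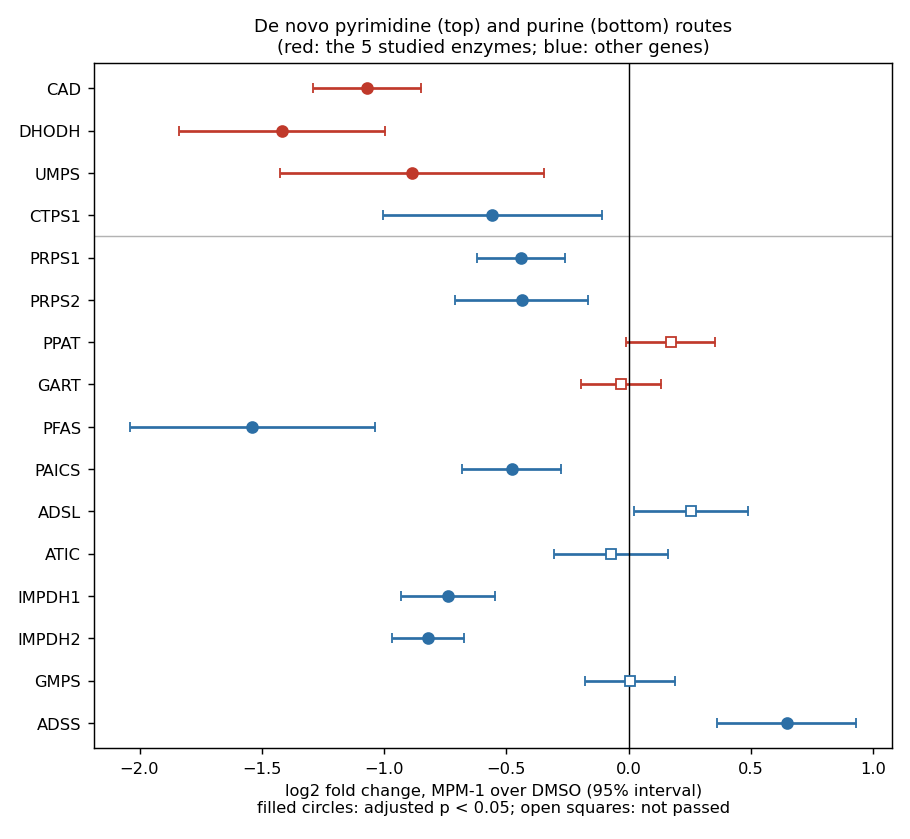
Log2 fold change (MPM-1 over DMSO, from edgeR) with 95% intervals for selected enzymes of the pyrimidine route (above the grey line) and the purine route (below it), in order of the steps. CAD, DHODH, UMPS and CTPS1 lie below 0. The purine route holds values on both sides of 0, with PFAS at -1.54, PPAT at 0.17 and ADSS at 0.65. The pyrimidine genes that were not drawn also lie on both sides of 0. These are CMPK1 (0.31), CTPS2 (0.04), NME2 (-0.01), NME6 (-0.21), NME1 (-0.51) and NME4 (-0.78).

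By FPKM, the order of the 9 enzymes under DMSO was TK1 (80.4 ± 4.11), GART (53.7 ± 2.07), RRM1 (47.0 ± 2.45), RRM2 (43.0 ± 5.85), TYMS (36.3 ± 6.36), PPAT (17.8 ± 1.36), CAD (6.34 ± 0.646), UMPS (4.31 ± 0.541) and DHODH (3.06 ± 0.704; mean ± SD, n = 3). RRM1 overlapped RRM2 and RRM2 overlapped TYMS over the libraries, and the other neighbours in the order did not overlap. Under MPM-1, GART led (47.1 ± 3.03), ahead of TK1 (36.2 ± 2.41) and RRM1 (23.6 ± 1.15). TYMS (19.1 ± 1.57), PPAT (18.0 ± 0.672) and RRM2 (17.6 ± 1.81) followed without a gap between neighbours. CAD (2.69 ± 0.170) overlapped UMPS (2.52 ± 0.848), and DHODH came last (1.12 ± 0.0479). RRM2 lay above PPAT in every DMSO library and overlapped it under MPM-1.

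Of 14 salvage genes, which reuse ready-made bases and nucleosides, 5 fell (35.7%), 4 rose (28.6%) and 5 did not pass, beside 28.8% and 27.7% of all genes. The count that rose was 2 with library size alone or FPKM. The list had a median log2 fold change of 0.10 that turned negative when scaled by library size alone or taken from FPKM. Uridine phosphorylase (UPP1), which splits uridine to uracil, rose the most, from 27.5 ± 2.54 to 131 ± 9.22 CPM (SD, n = 3; log2 fold change 2.25, edgeR adjusted p = 4.07e-07). Adenosine kinase (ADK) rose by 0.51 and UCKL1 by 0.38 on the log2 scale. APRT and HPRT1, which salvage purine bases, fell by 0.86 and 0.42, and the uridine and cytidine enzymes UCK1 and CDA by 0.64 and 0.63.

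Of 19 genes of breakdown and dNTP hydrolysis, 15 were in the table: 3 fell, 3 rose and 9 did not pass. That was 20% in each direction, under the shares of all genes with the reported settings. For the falls, this order depended on the scaling. With library size alone 8 fell, a larger share than the 37.5% of all genes. On log2(FPKM + 0.1) 6 fell, again a larger share than the 35.2% of all genes. The surface nucleotidase NT5E (CD73), which turns AMP to adenosine, rose from 49.0 ± 1.83 to 167 ± 18.7 CPM (SD, n = 3; log2 fold change 1.77, edgeR adjusted p = 1.06e-06). AMPD3 and NT5C3A also rose, by 0.93 and 0.56 on the log2 scale. NUDT1 (MTH1), which hydrolyses oxidised purine triphosphates, fell from 27.9 ± 2.56 to 8.52 ± 1.79 CPM (SD, n = 3; log2 fold change -1.71, edgeR adjusted p = 2.79e-05). The mitochondrial nucleotidase NT5M and adenosine deaminase (ADA) fell by 1.03 and 0.76. SAMHD1, the dNTP hydrolase, was at 9.07 ± 1.69 and 7.82 ± 1.19 CPM (SD, n = 3) and did not pass (edgeR adjusted p = 0.369).

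**Figure D5:**
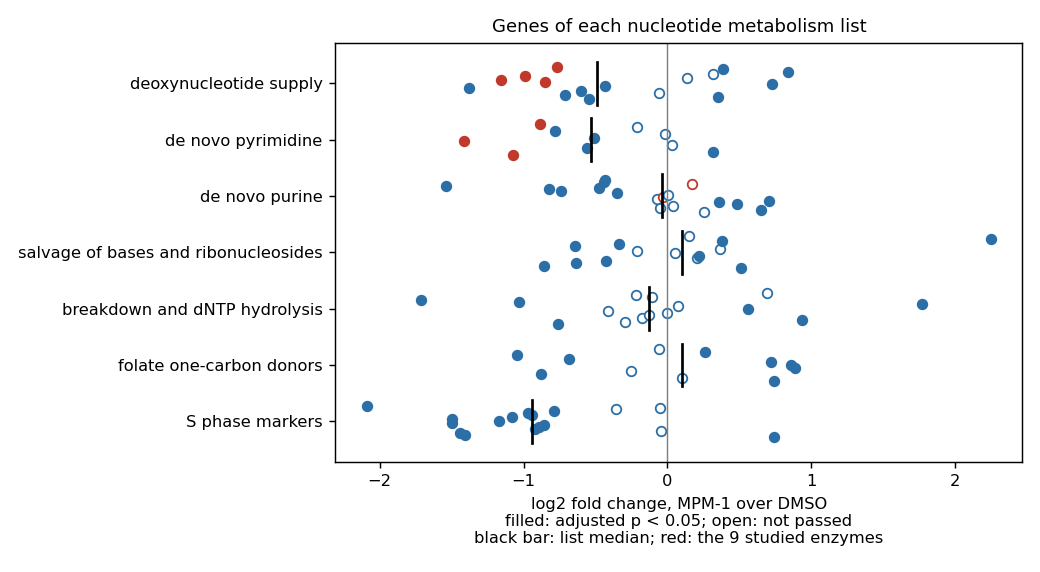
Log2 fold change (MPM-1 over DMSO, from edgeR) of every listed gene in the table, by list, with a black bar at each list's median. The studied enzymes (red) of deoxynucleotide supply and pyrimidine synthesis lie to the left of 0, where most S phase markers lie, and the lists of salvage, breakdown and folate donors spread to both sides.

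Markers of S phase moved with the deoxynucleotide genes. Of 17 such markers, 13 fell (76.5%), 1 rose (CCNE1, log2 fold change 0.74) and 3 (CDC6, SLBP and POLA1) did not pass. Among all genes, 28.8% fell. The median log2 fold change of the markers was -0.94, beside -0.89 for the 9 enzymes. The summed level of the markers was 710 to 834 CPM in the DMSO libraries and 461 to 486 in the MPM-1 libraries. UHRF1 had the largest fall among them (log2 fold change -2.09). The part of a changed cell cycle in the fall of the 7 enzymes was not tested.

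Profiles over the 6 libraries were compared for RRM2 and CAD, by the Euclidean distance between centred log2 CPM values over the 9241 genes averaging 10 CPM or more, as a description. The 3 nearest to RRM2 were DUS2 (distance 0.108), ASIC1 (0.109) and NCAPD3 (0.111), with log2 fold changes of -1.20, -1.17 and -1.15. Nearest to CAD were C20orf27 (0.0948), G2E3 (0.108) and KIF23 (0.115). Among the studied enzymes, TK1 was closest to both, ranking 50 from RRM2 and 65 from CAD, whereas PPAT ranked 5220 and 5345. DHODH was below the minimum level and was not ranked.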

How the data were processed

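RNA sequencing covered 3 DMSO and 3 MPM-1 libraries of SW480 cells at 24 h, grouped by the sample labels. RNA had been extracted with TRIzol and 1 mRNA library kit used for all. The authors deposited, per gene and library, whole-number counts without normalization, and FPKM values scaled by them for transcript length and library size. Their log2 fold changes and adjusted p-values, also deposited, were not used. The submitters' processing notes name HISAT2, DESeq2 and the mouse build mm10, yet all 12127 Ensembl identifiers are human and in GENCODE 29 (GRCh38), which gave coordinates and overlaps. The remaining genes have no position here. The annotation behind the counts and its use of strand are not given in the sources used here.

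Counts were tested with edgeR 4.0.16 in R 4.3.3 (quasi-likelihood test, TMM scaling, 6 libraries, no covariates, Benjamini-Hochberg adjustment over 12982 genes). Intervals are at 95% and cover the spread between these libraries. Ratios of 4 pairs were tested by exact permutation with scipy 1.17.1. The test was tried on simulated data, where it recovered most but not all changed genes and called some unchanged ones; the bar set for recovery was lowered after it was first missed. Alternatives were DESeq2 1.42.0 size factors and test, library size alone, a mean of at least 50 counts, a replicate block, each library left out, and limma 3.58.1 on log2(FPKM + 0.1), with pseudocounts of 1 and 0.01 and with or without a minimum mean of 1 FPKM; such fold changes understate low genes.

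The members and lists were chosen with earlier results of these data known, from general knowledge. Named genes are the 9 enzymes, fixed companions (RRM2B, PAICS, DTYMK, DUT, CTPS1, SAMHD1, HPRT1), up to 3 largest rises and falls per list, overlapping genes, and the 3 nearest profiles to RRM2 and CAD. DCTD, DCTPP1, DCK, NME1, NME4, PRPS1, PRPS2, ADSL, ATIC, GMPS, MTHFD1, MTHFD2L, SHMT2, CDC6, SLBP, POLA1, EPCAM and ACTA2 are among those that fall outside that rule and were named after their values were seen. A few genes the rule names are not reported here. Promoter sequences are RefSeq's (GRCh38.p14), and all 9 genes matched.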

Additional observations from a re-analysis of the deposited data

How the results depend on the processing

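All 7 genes that fell did so, with an adjusted p under 0.05, in each of the 15 alternative fits. At an adjusted p under 0.01, 6 passed with the reported settings, UMPS being the exception, and the adjusted p of UMPS ran from 0.00032 to 0.0351 over the alternatives. The count of genes that fell at least 2-fold at an adjusted p under 0.01 was 3 and ran from 2 to 6 over the alternatives. It was 6 with library size alone, which also lowered the median of all genes. The log2 fold change of RRM2 ran from -1.31 to -1.04, and that of DHODH from -1.57 to -0.92, the latter on log2(FPKM + 1). No pairing of libraries by replicate number was visible. Correlations of same-numbered deviations were 0.021, 0.114 and -0.074, and those of the other pairs ran from -0.130 to 0.115. Such correlations cannot exclude a pairing. With a replicate block 7 genes fell and the log2 fold change of UMPS was -0.95.

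With each library left out in turn, PPAT ran from 0.14 to 0.24 and GART from -0.052 to 0.010, turning to 0.0062 and 0.010 without MPM-1 replicate 1 or 3. With library size alone PPAT was 0.020 and GART -0.18, and in the 4 FPKM fits PPAT was 0.020 to 0.021 and GART -0.189 to -0.185 (limma adjusted p 0.0604 to 0.0656 for GART). RRM2B turned to -0.019 with library size alone and to -0.017, -0.016, -0.017 and -0.017 with FPKM at pseudocounts of 0.1, 1 and 0.01 and without a filter. The log2 ratio of PPAT to PAICS moved to 1.18 in FPKM. With library size alone and in all 4 FPKM fits, the pyrimidine list had 0 higher genes and the salvage list 2, and the breakdown list had 8 lower genes with library size alone and 6 in the FPKM fits. The salvage list likewise had 2 higher genes without DMSO replicate 2 or 3, its count ranging up to 5 with a library left out. In the same order, the median of the salvage list became -0.053, -0.081, -0.062, -0.084 and -0.0085, and that of the folate list -0.051, -0.048, -0.046, -0.048 and -0.048. The cause of these shifts was not tested. Depth limits DHODH most, at 111 to 465 counts per library.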

Other observations

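Genes of the folate pathway, which carries the carbon units used by TYMS, GART and ATIC, moved in both directions. Of 12 listed, 11 were in the table: 5 rose (45.5%), 3 fell (27.3%) and 3 did not pass. Among all genes, 27.7% rose and 28.8% fell. The mitochondrial enzymes MTHFD2 and MTHFD1L rose, MTHFD2 from 297 ± 7.65 to 538 ± 46.1 CPM (SD, n = 3; log2 fold change 0.86, edgeR adjusted p = 2.26e-05) and MTHFD1L by 0.89 on the log2 scale. MTHFD2L rose by 0.72 and SHMT2 by 0.26, both mitochondrial as well, and ALDH1L1, a cytosolic enzyme, by 0.74. In FPKM the treatments overlapped for SHMT2, at 131 to 149 under DMSO and 138 to 166 under MPM-1. The list had 4 higher genes with library size alone. The cytosolic SHMT1 fell from 45.4 ± 3.37 to 22.0 ± 1.35 CPM (SD, n = 3; log2 fold change -1.05, edgeR adjusted p = 2.02e-05). GGH, which trims the glutamate tail of folates, fell by 0.88 on the log2 scale. MTHFD1, the cytosolic counterpart with 3 activities, was at 99.1 ± 10.2 and 83.3 ± 8.69 CPM and did not pass (edgeR adjusted p = 0.0631). Whether mitochondrial and cytosolic enzymes differed was not tested.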
